A study of Rattus norvegicus with 8 samples.

Results

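Interferon-stimulated genes and the interferon receptor genes were followed in the neurohypophysis (neural lobe of the pituitary) of male Sprague Dawley rats of 125 days (4 libraries) and 35 days (4 libraries, labelled as the control age). At both ages the rats were perfused with phosphate-buffered saline under isoflurane, the lobe was flash frozen, and poly(A)-selected RNA was sequenced (NEBNext Ultra II libraries). The labels name no transgene and no treatment other than age. Whether the libraries of an age are separate animals is not labelled. The p-values below therefore measure the spread between these libraries, which may in part be technical. The members were chosen by gene symbol: the Ifit, Ifitm, Ifi, Irf, Oas, Mx, Gbp, Stat and Isg symbols plus 14 named sensors, regulators and receptors. Of 33294 genes listed, 66 symbols matched, and 58 of these reached a depth-normalized read count of 10 in 4 or more of the 8 libraries and are the members. They stand among 17919 genes of the whole table that passed the same filter. The other 8 (Ifitm7, Oas1d, Oas1e, Oas1f, Oas1h, Oas1k, Oas3 and Gbp3) never exceeded 12.4 in any library, and Ifitm7 was at 0 in all 8.

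Cells answer type I interferons (alpha and beta) through the receptor chains IFNAR1 and IFNAR2, and type II interferon (gamma) through IFNGR1 and IFNGR2. Receptor-bound kinases then activate transcription factors of the STAT family. A complex that holds STAT2 and IRF9 binds the interferon-stimulated response element (ISRE) in promoters, while STAT pairs bind the gamma-activated site (GAS). The genes induced include sensors of foreign RNA, proteins that block viral entry and translation, and negative regulators of the pathway itself, and most tissues keep a low basal level of them.

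The promoters of the members were searched first. Many of the symbols that chose them name interferon-induced gene families. A higher share of ISRE and GAS matches than in other genes therefore lends no separate support. Similar copies within a family are also counted as separate genes. RefSeq promoter windows (GRCr8, 250 bases before to 50 after a transcript start, 300 in all) could be matched for 45 of the 58 members. A gene with several windows was counted if any of them held a match, among the members and over all genes. The ISRE core GAAANNGAAA, on either strand and with overlapping copies counted separately, was present in 23 of the 45 (51.1%), against 1131 of all 27457 genes in the RefSeq table (4.12%). The GAS letters TTCNNNGAA, which read the same on both strands, were present in 11 of 45 (24.4%), against 2577 of 27457 (9.39%). In the promoter of Bst2 a match to each overlapped. A match describes letters only. The 100 bases upstream of the start are given for 3 neighbouring Oas1 genes with almost the same double element, 1 of them past the threshold with age, for 2 Ifitm genes that were lower at 125 days in the mean, and for Ifit3 of the Ifit cluster. Capitals mark the ISRE core, and each sequence is written 5′ to 3′ on the strand of its gene.
Oas1i (GRCr8 chr12:41285126-41285225, plus strand): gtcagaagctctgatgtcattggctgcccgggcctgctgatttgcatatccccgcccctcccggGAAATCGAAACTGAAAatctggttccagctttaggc
Oas1a (GRCr8 chr12:41330366-41330465, plus strand): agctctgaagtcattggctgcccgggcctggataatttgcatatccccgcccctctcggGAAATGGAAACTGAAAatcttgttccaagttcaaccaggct
Oas1b (GRCr8 chr12:41395853-41395952, minus strand): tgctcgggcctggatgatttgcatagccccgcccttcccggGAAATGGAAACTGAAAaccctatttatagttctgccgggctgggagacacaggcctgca
Ifitm3 (GRCr8 chr1:205541759-205541858, minus strand): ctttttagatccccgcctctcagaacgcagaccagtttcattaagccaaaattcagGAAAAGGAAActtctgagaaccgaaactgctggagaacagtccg
Ifitm2 (GRCr8 chr1:205482349-205482448, minus strand): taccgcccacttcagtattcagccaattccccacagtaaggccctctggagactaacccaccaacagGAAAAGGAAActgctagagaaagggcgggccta
Ifit3 (GRCr8 chr1:241527226-241527325, plus strand): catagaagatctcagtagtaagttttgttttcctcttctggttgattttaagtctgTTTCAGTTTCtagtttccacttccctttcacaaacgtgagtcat

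The core was found in promoters of members that went either way with age and of members that passed no test. It was present in 1 of the 3 higher members with a matched window (Oas1i), in 2 of the 4 lower ones (Ifitm3 and Gbp1), and in 20 of the 38 that did not pass the threshold. In Gbp1 only 1 of its 2 windows held the core.

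Across the libraries, recovered read totals ran from 28429133 to 58696254, and the ages lay apart on the first principal component (53.4% of variance). On the second (21.3%), 35-day replicate 3 was at -59.7 and the other 35-day libraries at 21.8 to 29.3. The same library had the highest summed level of the 10 anterior pituitary markers (Gh1, Prl and others): the sums were 6508 to 50160 at 125 days and 24270 to 1394000 at 35 days. Of the pituicyte markers, the glia of this lobe, all 14 were measured, with sums of 69140 to 100300 at 125 days and 91330 to 140800 at 35 days, and 1 was higher and 4 were lower at 125 days. Lists of other cell types also moved with age. Lower at 125 days were 9 of 12 endothelial, 8 of 10 pericyte and smooth muscle, 7 of 9 fibroblast, 6 of 6 tested granulocyte, 3 of 3 tested B cell, 5 of 5 tested erythroid and 4 of 10 anterior lobe markers. Higher were 1 pericyte and smooth muscle marker, 1 of 4 intermediate lobe markers, 1 of the 2 neurosecretory axon genes Avp and Oxt, and 1 of 7 tested plasmacytoid and dendritic cell markers. The intermediate lobe sums, nearly all Pomc, were 3601000 to 5327000 at 125 days and 1997000 to 3750000 at 35 days. They were far above the pituicyte sums in every library. Pomc itself did not pass (log2 change 0.87 with SE 0.57, adjusted p = 0.333), and no fit adjusted for the intermediate lobe. Adjusting the fit for the anterior lobe markers ended 8 of the 13 calls among the members, given gene by gene with their values. It also brought 4 other members past the threshold. The mean log2 level of these markers was 7.17 to 9.27 in the 125-day and 8.78 to 13.7 in the 35-day libraries. It thus went partly with age, and the adjusted fit cannot fully separate the 2. What part the other cell types have in the results was not tested. In whole tissue, fewer cells of a type and less RNA per cell cannot be told apart.

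With limma on log2(value + 1), age moved a minority of the members, about equally in the 2 directions. At 125 days 7 members were higher (Gbp6, Oas2, Oas1i, Usp18, Ddx58, Dhx58 and Stat2), or 12.1% of 58, beside 8.85% of all genes tested. Another 6 were lower (Ifit1, Gbp1, Ifitm3, Ifngr1, Ifi30 and Ifitm1), or 10.3%, beside 8.87% of all genes. Ifit1 was kept by the filter only through its 35-day values. Both shares lie near those of the whole table. The median log2 change, 125 minus 35 days, was 0.09 over the members (the same with Ifit1, the lowest, at its bound) and 0.01 over all genes. Without 35-day replicate 3 the counts were 16 higher, or 27.6%, beside 15.9% of all genes, and 9 lower, or 15.5%, beside 14.8%. Values of the 2 ages did not overlap for 9 members that were higher (15.5%, beside 13.4% of all genes) and 7 that were lower (12.1%, beside 11.5%). The number of higher members depended on single libraries, as did that of all genes, though it fell further in proportion in the fits that follow. Without 125-day replicate 1, 2, 3 or 4 it was 3, 4, 1 or 2, beside 942, 1330, 916 or 860 of all genes, against 1585 with every library. Without 35-day replicate 1 or 2 it was 3 or 2, beside 1179 or 1087 of all genes. In each of these fits the share of members that were higher lay below that of all genes.

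**Figure D1:**
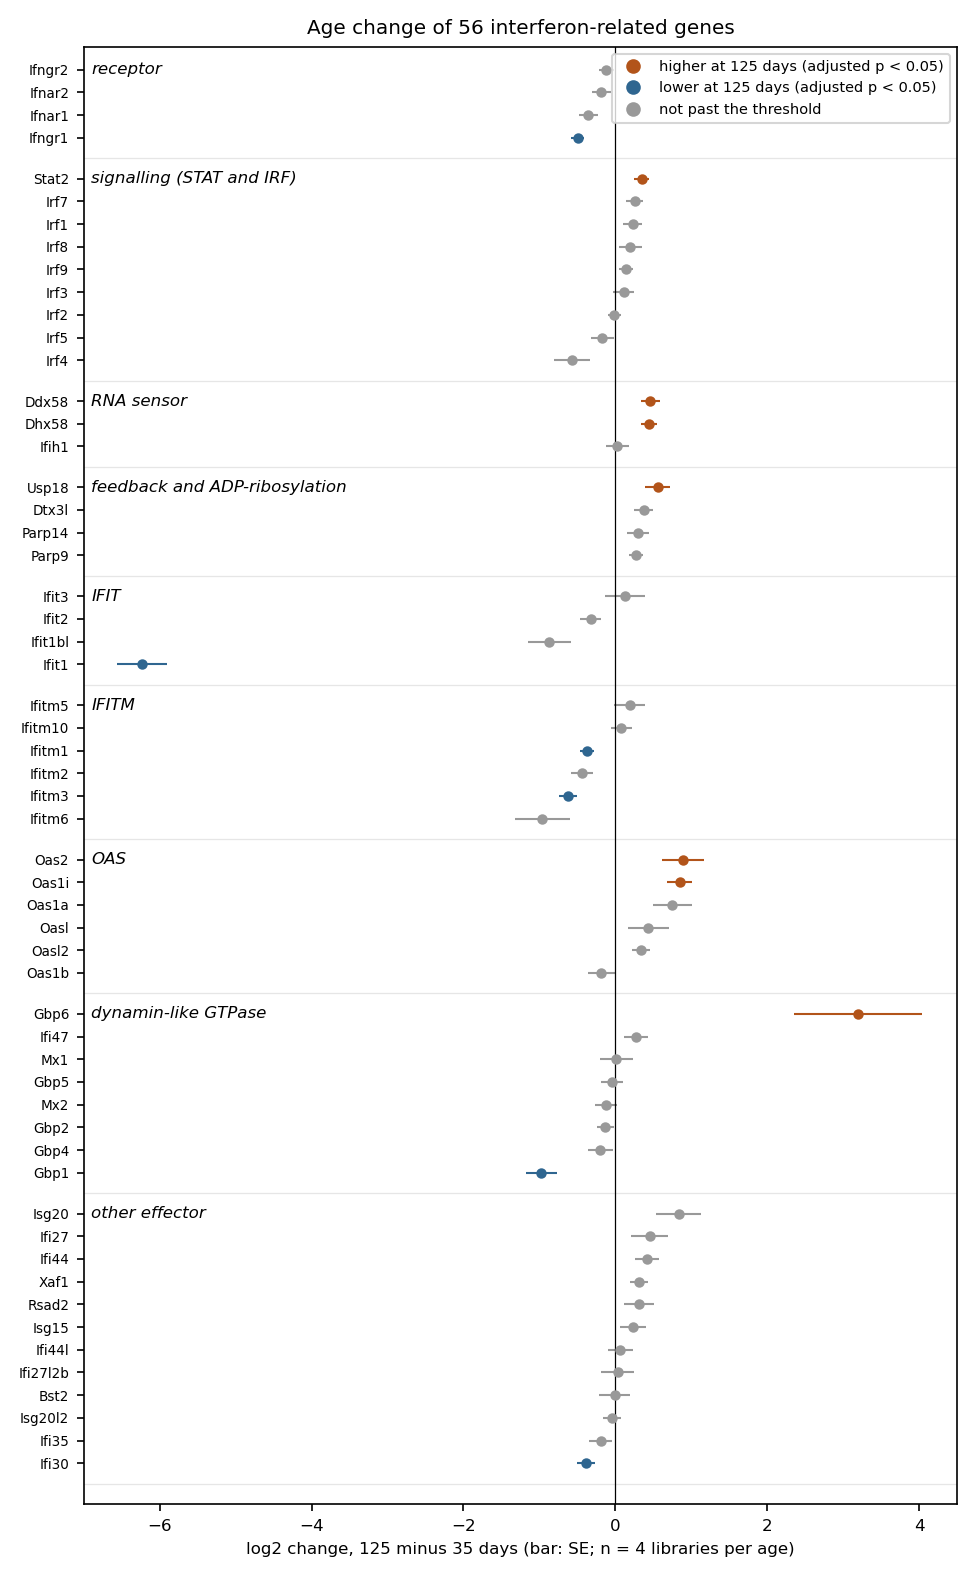
Log2 change of 56 of the 58 members, 125 minus 35 days, on the log2(value + 1) scale (horizontal axis), with its standard error, grouped by role. Receptor genes lie left of 0, OAS genes other than Oas1b lie right of it, and Ifit1 is the lowest point because it was at 0 in all 125-day libraries, where the fitted change depends on the pseudocount.

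All 4 receptor genes had lower means at 125 days, and 1 of them passed the threshold. Ifngr1, the ligand-binding chain of the interferon gamma receptor, had depth-normalized read counts of 2246, 2580, 2220 and 2296 in the 125-day libraries, against 3400, 3415, 3386 and 2986 in the 35-day libraries. The ages did not overlap, and the mean fell to 2336 ± 166 at 125 days, against 3297 ± 207 at 35 days (SD, n = 4 each; log2 change -0.50 with SE 0.09, limma adjusted p = 0.00419). This call held without any 1 of the 8 libraries (adjusted p 0.0016 to 0.0216) and with adjustment for the level of anterior lobe markers. Ifnar1, a chain of the type I receptor, had 2029, 2377, 1974 and 1937 at 125 days, against 2864, 3002, 2067 and 2773 at 35 days. Here 35-day replicate 3 lay among the 125-day values, and the log2 change of -0.35 (SE 0.13) had adjusted p = 0.0879. Without that library the log2 change was -0.47 (SE 0.08, adjusted p = 0.00217), and with anterior lobe adjustment it was -0.61 (SE 0.14, adjusted p = 0.0168). The second chains overlapped between ages. Ifnar2 had 1004, 1391, 1123 and 1128 at 125 days, against 1396, 1486, 1135 and 1254 at 35 days (adjusted p = 0.35). Ifngr2 had 771, 886, 726 and 791 at 125 days, against 939.8, 842, 863 and 798 at 35 days (adjusted p = 0.45). The 16 microglia and macrophage markers summed to 13120 to 20100 in the 125-day and 17410 to 19790 in the 35-day libraries, with 1 marker higher and 4 lower, and their part in the Ifngr1 result was not tested.

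The interferon genes themselves were barely detected. None of the 9 listed symbols passed the filter, and Ifnb1, Ifna5, Ifna16l1, Ifnl1 and Ifnl3 were at 0 in all 8 libraries. Ifng, the only type II ligand, was at 0 in 2 of the 125-day libraries and in 3 of the 35-day libraries, and reached 4.06. Ifna1 had 16.3, 6.84, 17.7 and 16.6 at 125 days, against 2.44, 0, 2.18 and 2.26 at 35 days. It was named after its values were seen and was not tested. Its 62 reads over 8 libraries limit the comparison, and interferon alpha genes are near-identical copies that can share reads.

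Of the 11 signalling members, STAT and IRF genes, 1 passed the threshold. Stat2, the STAT of the type I complex, had 1619, 1577, 1513 and 1593 at 125 days, against 1199, 1283, 1080 and 1413 at 35 days. Every 125-day library was above every 35-day library, a log2 change of 0.35 (SE 0.10, adjusted p = 0.0352). That call was lost with anterior lobe adjustment (log2 change 0.28 with SE 0.13, adjusted p = 0.196), with no intensity trend in the fit (0.0555), and when any single library other than 35-day replicate 3 or 4 was left out (0.0695 to 0.1). Irf9, the DNA-binding part of the same complex, overlapped between ages. It had 1255, 1175, 1378 and 1216 at 125 days, against 1119, 1033, 1195 and 1196 at 35 days (log2 change 0.14 with SE 0.09, adjusted p = 0.318). Whether it differs from Stat2 in its change was not tested. Irf1, an early gene of the gamma response, had 1414, 1463, 1470 and 1594 at 125 days, against 1071, 1202, 1632 and 1219 at 35 days, where replicate 3 was the highest of all 8. Its log2 change of 0.23 (SE 0.13) had adjusted p = 0.252, and without 35-day replicate 3 it was 0.35 (SE 0.07, adjusted p = 0.00617). With anterior lobe adjustment the Irf1 change was 0.49 (SE 0.13, adjusted p = 0.0333). Irf4, a regulator of lymphocytes, had 56.9, 60.6, 64.3 and 65.5 at 125 days, against 105, 76.5, 64.3 and 139 at 35 days. Replicate 3 was the one 35-day library among the 125-day values (adjusted p = 0.129, and 0.0244 without it). Irf2, Irf3, Irf5, Irf7 and Irf8 had log2 changes between -0.17 and 0.26 and none passed in either fit.

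Of the 3 cytosolic RNA sensors 2 were higher at 125 days. Ddx58 encodes RIG-I, which recognises RNA with a 5′ triphosphate. It had 1247, 1232, 1170 and 1166 at 125 days, against 968, 919, 663 and 984 at 35 days, without overlap and with replicate 3 the lowest (log2 change 0.46 with SE 0.13, adjusted p = 0.0343). Dhx58 encodes LGP2, a helicase that modulates the other sensors. It had 668, 729, 711 and 696 at 125 days, against 503, 465, 508 and 593 at 35 days (log2 change 0.44 with SE 0.10, adjusted p = 0.015). In both genes the 125-day libraries lay close together and above all 35-day libraries. Ifih1, encoding MDA5, which binds long double-stranded RNA, averaged 580 ± 27.5 at 125 days and 578 ± 113 at 35 days (SD, n = 4 each; adjusted p = 0.926). With anterior lobe adjustment the Ddx58 change was 0.22 (SE 0.14, adjusted p = 0.34) and the Dhx58 change 0.41 (SE 0.14, adjusted p = 0.0857). Leaving out 35-day replicate 2 or any single 125-day library ended the Ddx58 call (0.0649 to 0.0949), as did a fit with no intensity trend (0.0541). Leaving out 35-day replicate 2 or 125-day replicate 3 ended that of Dhx58 (0.0508 and 0.0524).

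Usp18, which removes ISG15 from proteins and blocks signalling at IFNAR2, had 346, 380, 468 and 450 at 125 days, against 298, 215, 270 and 339 at 35 days. The ages were separated by a narrow gap, 339 to 346, with a log2 change of 0.56 (SE 0.16, adjusted p = 0.0399). This call was lost with anterior lobe adjustment (log2 change 0.49 with SE 0.23, adjusted p = 0.175) and on leaving out 35-day replicate 1 or 2 or 125-day replicate 2, 3 or 4 (0.0599 to 0.12), with upper quartile scaling (0.0524) and with no intensity trend (0.051). Parp9, Dtx3l and Parp14 lie side by side in the genome. PARP9 and DTX3L form an ADP-ribosylation and ubiquitin ligase complex, and PARP14 is a related enzyme. Parp9 had 1723, 1931, 1979 and 1844 at 125 days, against 1573, 1437, 1477 and 1736 at 35 days (adjusted p = 0.0752). Dtx3l had 1196, 1313, 1365 and 1246 at 125 days, against 1133, 1004, 781 and 1070 at 35 days (adjusted p = 0.0631). The ages met in Parp9 and stayed apart in Dtx3l. Parp14 averaged 2393 ± 163 at 125 days and 1974 ± 389 at 35 days (SD, n = 4 each; adjusted p = 0.193). Without 35-day replicate 3, which had the lowest Dtx3l (781) and Parp14 (1412) of all libraries, Dtx3l (log2 change 0.26, adjusted p = 0.0254) and Parp9 (0.24, adjusted p = 0.0455) passed and Parp14 did not (0.15, adjusted p = 0.156).

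**Figure D2:**
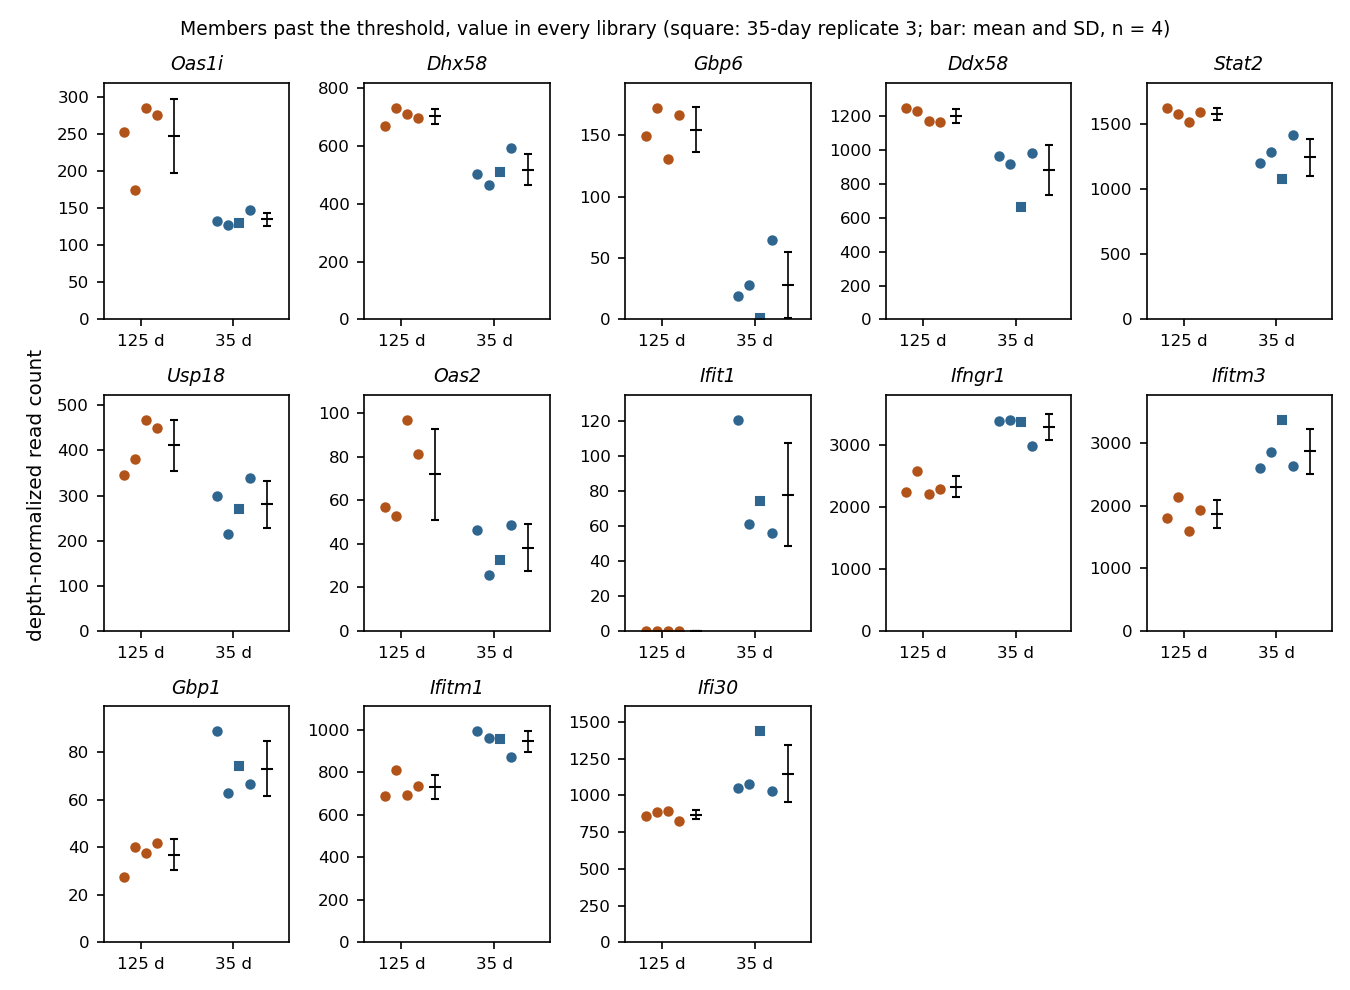
Depth-normalized read count (vertical axis, from 0) of the 13 members past the threshold in each of the 4 libraries of 125 days and the 4 of 35 days, with mean and SD; squares mark 35-day replicate 3. The first 7 genes were higher and the last 6 lower at 125 days, and in all 13 the ages do not overlap.

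The largest difference of any member was in the Ifit cluster, whose proteins bind viral RNA and restrain translation. Ifit1 was at 0 in all 4 libraries of 125 days, against 121, 61.0, 74.1 and 55.9 at 35 days, 325 recovered reads in all. With a floor of 3 reads set over the 125-day group, it was at least 99.2-fold lower at 125 days. It is the only member at 0 in every library of 1 age, and it passed the value filter only through the 35-day libraries, so that it had to differ and its test lends no support. Ifit1bl, a paralog whose annotated gene spans Ifit1 in the RefSeq annotation, had 19.3, 31.3, 17.7 and 12.7 at 125 days, against 35.3, 35.1, 42.5 and 31.6 at 35 days. These ages also did not overlap, by the narrow gap of 31.3 to 31.6, and the log2 change of -0.87 (SE 0.28) had adjusted p = 0.0593. The next genes of the cluster did not follow Ifit1 to 0. Ifit2 had 375, 416, 439 and 446 at 125 days, against 605, 499, 412 and 602 at 35 days (log2 change -0.32 with SE 0.14, adjusted p = 0.147). Without 35-day replicate 3, the one that overlapped, the Ifit2 change was -0.44 (SE 0.10, adjusted p = 0.0116). With anterior lobe adjustment it was -0.565 (SE 0.16, adjusted p = 0.0438). Ifit3, next to Ifit2, averaged 102 ± 28.0 at 125 days and 94.9 ± 33.6 at 35 days (SD, n = 4 each; adjusted p = 0.786). Strand was not stated for the counting and these paralogs overlap or resemble each other, so the division of reads between Ifit1 and Ifit1bl is uncertain.

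Of the Ifitm genes, whose small membrane proteins hinder the entry of enveloped viruses, 2 of 6 members were lower and none was higher at 125 days. Ifitm3 had 1808, 2141, 1594 and 1928 at 125 days, against 2614, 2861, 3377 and 2633 at 35 days (log2 change -0.62 with SE 0.12, adjusted p = 0.00628). Its highest 125-day library stayed below its lowest 35-day library, and the call held without any 1 library (0.00276 to 0.0244). With anterior lobe adjustment it was lost (log2 change -0.53 with SE 0.16, adjusted p = 0.0523). Ifitm1 had 691, 811, 692 and 734 at 125 days, against 993, 960, 958 and 874 at 35 days, again without overlap (log2 change -0.37 with SE 0.09, adjusted p = 0.0224). That call was lost without 35-day replicate 1 or 2 or 125-day replicate 1, 3 or 4 (0.0588 to 0.0785). Ifitm2 averaged 1101 ± 140 at 125 days and 1500 ± 264 at 35 days (adjusted p = 0.0639), and Ifitm6 averaged 19.4 ± 9.60 at 125 days and 37.8 ± 14.1 at 35 days (adjusted p = 0.0976; SD, n = 4 each). These 4 are neighbours. Ifitm5, at the end of the same cluster and known from bone, and Ifitm10, farther away, are not classed as interferon effectors and had log2 changes of 0.19 (adjusted p = 0.571) and 0.08 (adjusted p = 0.75). Endothelial marker sums were 14880 to 27950 at 125 days and 26370 to 35110 at 35 days, and fibroblast marker sums were 29810 to 46680 in the 125-day and 76290 to 104100 in the 35-day libraries. Ifitm1, Ifitm2, Ifitm3 and Ifitm6 were each highest in replicate 2 among the 125-day libraries, which also had the highest endothelial and fibroblast sums of that age. This was not particular to the Ifitm genes: the library was highest for 16 of the 57 members with values at 125 days, the 4 receptor genes among them. That library also had the highest pituicyte (100300) and microglia and macrophage (20100) sums of its age. Among the 35-day libraries, replicate 2 again had the highest endothelial and fibroblast sums, but none of these 4 genes was highest in it. The part of these cell types in the Ifitm values was not tested.

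The 2′-5′ oligoadenylate synthetases, which activate RNase L on double-stranded RNA, gave 2 higher and no lower of 6 members. Oas1i had 253, 175, 285 and 276 at 125 days, against 133, 128, 131 and 148 at 35 days. All 4 later libraries exceeded all 4 earlier ones, a log2 change of 0.85 (SE 0.17, adjusted p = 0.00771), and the call held without any 1 library (0.00164 to 0.0324) and with anterior lobe adjustment. Oas2 had 56.9, 52.8, 97.1 and 81.1 at 125 days, against 46.3, 25.8, 32.7 and 48.5 at 35 days, a log2 change of 0.89 (SE 0.27). Its adjusted p of 0.0498 was at the threshold, and the call was lost when any single library other than 35-day replicate 4 or 125-day replicate 2 was left out (0.056 to 0.144), with that adjustment (log2 change 0.77 with SE 0.38, adjusted p = 0.214), in edgeR (0.054) and under 5 other pseudocounts, filters or scalings (0.0503 to 0.0757). Oas1a had 180, 209, 272 and 186 at 125 days, against 138, 74.4, 125 and 181 at 35 days, where the ages touch (log2 change 0.75 with SE 0.26, adjusted p = 0.0715). Oas1b, with the same double ISRE core as Oas1a in its promoter, had 105, 152, 151 and 146 at 125 days, against 155, 125, 157 and 192 at 35 days (log2 change -0.18 with SE 0.18, adjusted p = 0.53). Whether the Oas1 genes differ from each other in their change was not tested, and the copies are similar enough that reads may be shared. Oasl2 did not overlap between ages (340 ± 26.7 at 125 days and 269 ± 28.0 at 35 days, SD, n = 4 each) and had adjusted p = 0.0857. Oasl had 94.5, 68.4, 108 and 86.0 at 125 days, against 57.2, 47.5, 111 and 58.7 at 35 days (adjusted p = 0.305). Replicate 3 was the high 35-day library, and without it Oasl passed (log2 change 0.69 with SE 0.20, adjusted p = 0.0246). Summed T and NK cell markers were 1229 to 1775 at 125 days and 919 to 1102 at 35 days. Of 6 tested markers 2 were higher (Cd4 and Cd8a), and the NK marker Klrb1 was at 0. Most of each sum was Cd4 alone, with 1096 to 1560 at 125 days and 795 to 885 at 35 days. The T cell gene Cd3e stayed at or below 29.3 in every library. Nkg7 had a negative change (log2 change -0.78 with SE 0.40, adjusted p = 0.214). The part of these cells in the Oas values was not tested.

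Among the 8 large GTPases, which attack the membranes of intracellular microbes or viral capsids, 1 was higher and 1 lower at 125 days. Gbp6 had 149, 172, 131 and 166 at 125 days, against 19.5, 27.9, 1.09 and 64.9 at 35 days. The earlier libraries spread widely, down to 1 read in replicate 3, and all lay below the later ones (log2 change 3.20 with SE 0.84, adjusted p = 0.0268). The size of this change rested on that library: without it the log2 change was 2.19 (SE 0.34, adjusted p = 0.00145). With all libraries kept, the count tests gave smaller log2 changes, 2.34 in edgeR and 2.43 in DESeq2. The call was lost without 35-day replicate 1 or any single 125-day library (0.0557 to 0.0707), and with anterior lobe adjustment the log2 change was 1.72 (SE 0.95, adjusted p = 0.26). Gbp1 had 27.4, 40.1, 37.8 and 42.0 at 125 days, against 88.9, 63.0, 74.1 and 66.6 at 35 days, a log2 change of -0.98 (SE 0.20, adjusted p = 0.00952). The ages were well apart, and the call held without any 1 library (0.0098 to 0.0295) and with that adjustment. Other genes of the Gbp1 cluster overlapped between ages. Gbp2 had 719, 714, 711 and 806 at 125 days, against 914, 709, 757 and 861 at 35 days (log2 change -0.13 with SE 0.11, adjusted p = 0.445). Gbp4 and Gbp5 had log2 changes of -0.20 and -0.04 (adjusted p = 0.468 and 0.87). Gbp6 lies in another cluster. The antiviral Mx1 had 405, 401, 458 and 496 at 125 days, against 435, 376, 314 and 693 at 35 days, with the 125-day libraries inside the 35-day range (log2 change 0.01 with SE 0.22, adjusted p = 0.978). Its sign turned with upper quartile scaling, in edgeR and DESeq2, with anterior lobe adjustment and without 35-day replicate 2 or 3 or 125-day replicate 3 or 4. Mx2 averaged 1303 ± 163 at 125 days and 1434 ± 278 at 35 days (SD, n = 4 each; adjusted p = 0.597). The immunity-related GTPase gene Ifi47 had 469, 479, 545 and 538 at 125 days, against 413, 331, 566 and 395 at 35 days. Only replicate 3 of the 35-day libraries lay among the 125-day values or above (adjusted p = 0.265, and 0.0155 without it).

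Of the 12 other effectors 1 was lower and none higher. Ifi30 encodes GILT, a thiol reductase of antigen-processing lysosomes. It had 861, 889, 895 and 825 at 125 days, against 1047, 1075, 1435 and 1029 at 35 days (log2 change -0.39 with SE 0.12, adjusted p = 0.0473). Replicate 3 was the high one at 35 days, and without it the change was -0.28 (SE 0.07, adjusted p = 0.0119). The call was lost without any 1 other library, at 0.0624 to 0.132, except 35-day replicate 4, and after adjusting for anterior lobe markers (log2 change -0.21 with SE 0.14, adjusted p = 0.365). It was also lost with no filter (0.0572), upper quartile scaling (0.0537) and no intensity trend (0.0685). Isg15, the ubiquitin-like modifier, had 333, 397, 425 and 399 at 125 days, against 357, 229, 389 and 370 at 35 days (log2 change 0.23 with SE 0.17, adjusted p = 0.401). Ifi27, a small interferon-induced membrane protein, had 4815, 6282, 6339 and 5807 at 125 days, against 3923, 2544, 6590 and 4825 at 35 days (log2 change 0.45 with SE 0.24, adjusted p = 0.242). In both, the 125-day values lay within or across the wider 35-day range. Isg20, encoding an exonuclease, had 267, 277, 301 and 360 at 125 days, against 183, 101.3, 314 and 135 at 35 days. Ifi44 had 1538, 1516, 1684 and 1487 at 125 days, against 1186, 1043, 1606 and 928 at 35 days. Xaf1, a promoter of apoptosis, had 868, 841, 981 and 839 at 125 days, against 698, 630.4, 882 and 649 at 35 days. In all 3 genes, 35-day replicate 3 lay within the 125-day range and the other 35-day libraries below it. Without that library, Ifi27 (log2 change 0.67 with SE 0.19, adjusted p = 0.024), Isg20 (1.14, SE 0.19, adjusted p = 0.00238), Ifi44 (0.57, SE 0.09, adjusted p = 0.00157) and Xaf1 (0.42, SE 0.08, adjusted p = 0.00483) were higher. With it, their adjusted p were 0.242, 0.0826, 0.0931 and 0.109. Bst2, Ifi27l2b, Ifi35, Ifi44l, Isg20l2 and Rsad2 had log2 changes between -0.19 and 0.31, and none passed in either fit.

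The libraries differed in which members were high. Among the 35-day libraries, replicate 2 had the lowest value for 24 of the 58 members, among them Isg15, Usp18, Ifi27, Isg20, Ifi44l, Oas1a, Oas2 and Oasl2. Replicate 3 had the lowest for 17, including both Ddx58 and Ifih1, Rsad2, Mx1, Parp14 and Stat2, and the highest for 20, including Ifi27, Bst2, Ifi35, Ifi30, Ifi44 and Isg20. That library thus held members at both ends of the 35-day range. Replicate 4, the deepest library, had the highest for 18, including Mx1, Mx2, Oas1a, Oas2, Gbp6 and Stat2. Among the 125-day libraries and the 57 members with values there, replicate 1 was the lowest for 27, and replicates 2 and 3 the highest for 16 and 23. These ranks were not counted over all genes, so whether they are particular to the members was not tested. Of those 57 members, 42 had a larger SD of log2(value + 1) at 35 than at 125 days, beside 13372 of the 17919 genes tested. The median SD of the members was 0.147 at 125 days and 0.251 at 35 days. Over all genes tested these medians were 0.14 and 0.261. Without 35-day replicate 3 the 35-day median was 0.163 over the members and 0.137 over all genes.

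**Figure D3:**
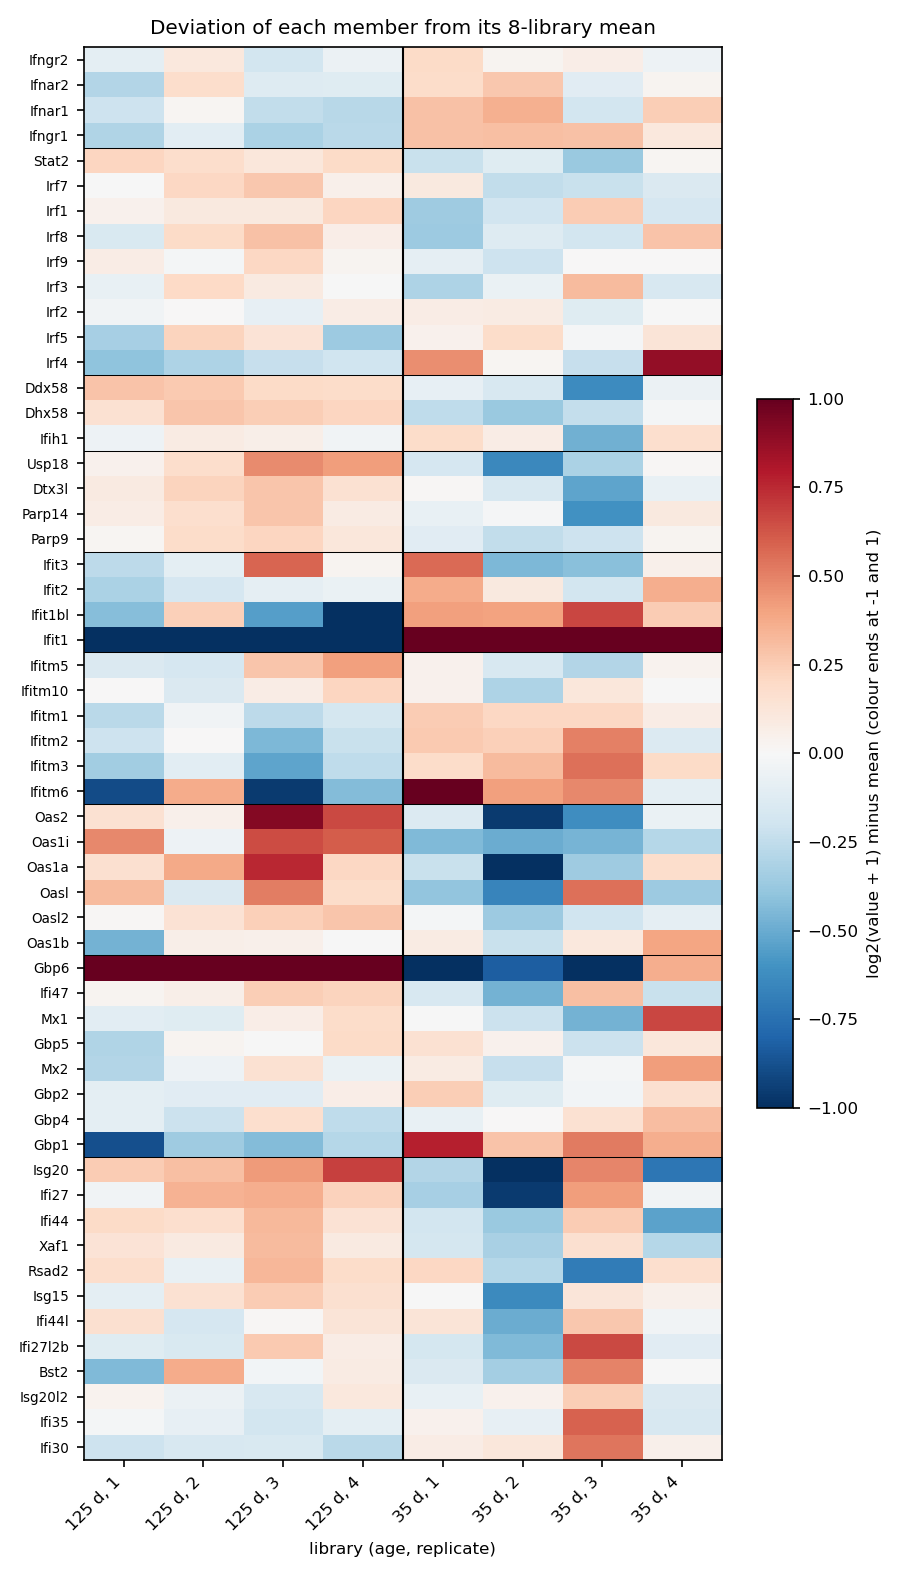
Deviation of log2(value + 1) from its mean over the 8 libraries (colour, ending at -1 and 1) for 56 of the 58 members (rows, grouped by role in the order receptor, signalling, RNA sensor, feedback, IFIT, IFITM, OAS, GTPase, other effector) in the 125-day and 35-day libraries (columns). The Ifit1 and Gbp6 rows separate the ages, and in the column of 35-day replicate 3 Ddx58, Dtx3l and Parp14 are low while Ifi35, Ifi30 and Ifi27l2b are high.

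Other genes of interferon production, signalling and response, 99 symbols in all and not members, were read from the same fit. Of these, 8 symbols were not matched in the table, among them Tmem173 and Mb21d1, older names of the tested genes Sting1 and Cgas. A further 9 interferon genes were below the filter, and 82 genes were tested. At 125 days 15 were higher (18.3%, beside 8.85% of all genes) and 2 lower (2.44%, beside 8.87%), with a median log2 change of 0.15. Without 35-day replicate 3 the counts were 25 and 6, beside 2846 and 2649 of all genes. They were 5 and 1 without 125-day replicate 3 (beside 916 and 1032) or 4 (beside 860 and 1034). The count of higher genes was 7 without 35-day replicate 2 (beside 1087) and 9 with anterior lobe adjustment (beside 1286). By role, 5 of 15 genes of antigen presentation and its chemokines were higher, 7 of 39 effectors were higher and 1 lower, 2 of 18 sensing genes were higher and 1 lower, and 1 of 10 receptor-proximal genes, the interferon lambda receptor gene Ifnlr1, was higher.

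Zc3hav1, the zinc-finger antiviral protein, had 3005, 2747, 2577 and 2682 at 125 days, against 1534, 1617, 1162 and 1658 at 35 days (log2 change 0.89 with SE 0.12, adjusted p = 0.000956). Adar, an RNA-editing enzyme that marks self RNA, had 6094, 5792, 6443 and 5990 at 125 days, against 3962, 3984, 3162 and 4580 at 35 days (log2 change 0.64 with SE 0.11, adjusted p = 0.00424). In both genes the ages were widely separated. Ticam1, the adaptor of toll-like receptor 3, rose by 0.83 on the log2 scale (SE 0.14, adjusted p = 0.00391). Cgas, the cytosolic DNA sensor, had 28.4, 26.4, 36.6 and 33.2 at 125 days, against 75.5, 51.7, 61.0 and 60.4 at 35 days, and was the sensing gene that fell (log2 change -0.97 with SE 0.20, adjusted p = 0.0087). These 4 calls, and that of the peptide-loading gene Tapbp (log2 change 0.68 with SE 0.14, adjusted p = 0.0101), held without any 1 library and with anterior lobe adjustment. Erap1, a peptide trimmer, rose by 0.40 (SE 0.09), Ciita, the class II regulator, by 0.85 (SE 0.19), the peptide transporter gene Tap1 by 0.58 (SE 0.13), the GTPase gene Igtp by 0.46 (SE 0.11) and the class I regulator Nlrc5 by 0.49 (SE 0.12). Of these 5, the Ciita, Tap1, Igtp and Nlrc5 calls were lost without 125-day replicate 3 or 4 (adjusted p up to 0.0529, 0.0542, 0.0589 and 0.0705), Igtp and Nlrc5 also without 35-day replicate 2, Nlrc5 also without 35-day replicate 1, and Erap1, Igtp and Nlrc5 with that adjustment. The kinase genes Jak1, Jak2 and Tyk2 and the inhibitor genes Socs1 and Socs3 did not pass (adjusted p = 0.892, 0.984, 0.258, 0.98 and 0.303).

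**Figure D4:**
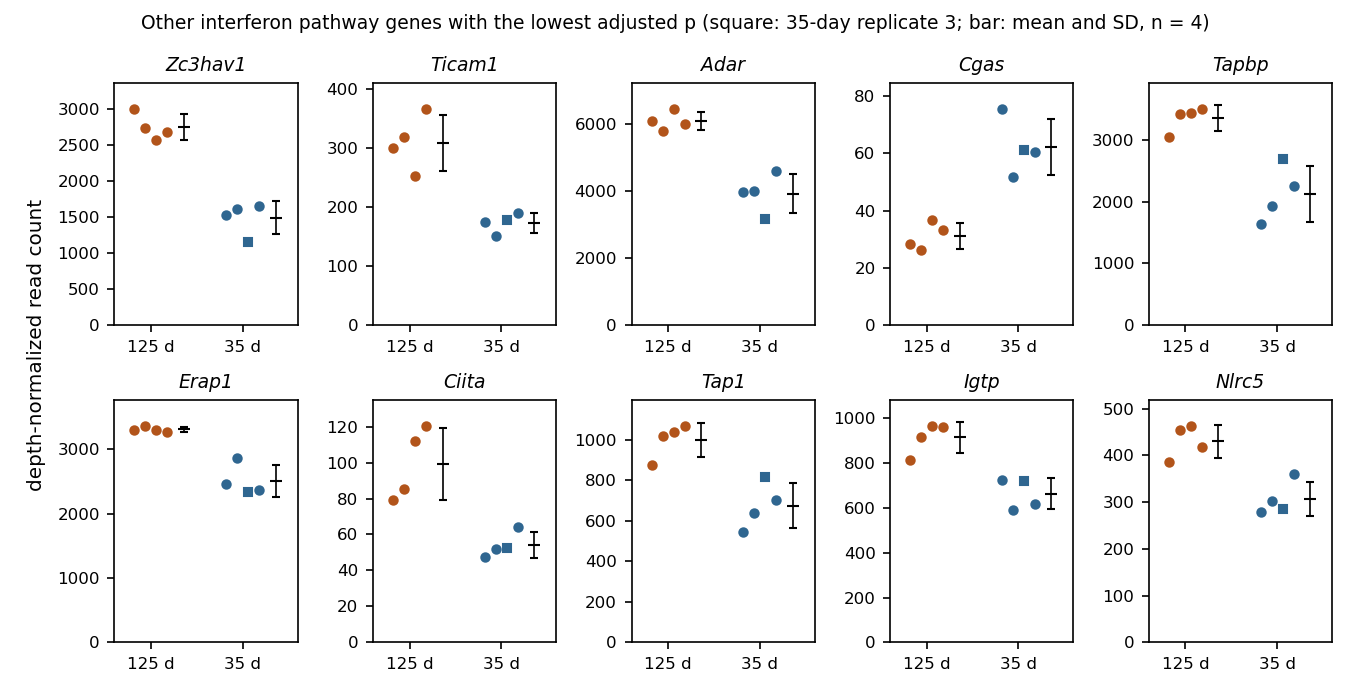
Depth-normalized read count (vertical axis, from 0) of the 10 other pathway genes with the lowest adjusted p, in the 4 libraries of 125 days and the 4 of 35 days, with mean and SD; squares mark 35-day replicate 3. Cgas is lower at 125 days and the other 9 genes are higher.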

How the data were processed

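RNA-seq values of 8 neurohypophysis libraries were used, grouped by the age in their labels (125 days, n = 4; 35 days, n = 4). The deposited signal is depth-normalized: in each library every value was a whole multiple of a single step (100% within 0.001 reads), so the authors scaled whole reads per gene by a library factor. Tools named in the submitters' processing notes are HISAT2 2.2.1, Trimmomatic 0.39, featureCounts, Subread 2.0.1, SAMtools 1.13 and DESeq2 1.34.0, with rn7 as build; the annotation and the strand used in counting were not given in the sources used here. The authors' means were not used. limma 3.58.1 (R 4.3.3, intensity trend) was fitted to log2(value + 1) of 17919 genes with age as the only term. Calls are two-sided at a Benjamini-Hochberg adjusted p below 0.05 over all of them. The added 1 pulls the changes of low genes toward 0. A mean of log2 values also follows a single low library, so a change can exceed that of the count tests, as in Gbp6. No 2 libraries looked like copies. Floors cover counting error only. Alternatives were other pseudocounts, filters, scalings and spreads, 2 count tests on those reads (DESeq2 1.42.0 and edgeR 4.0.16), a replicate block, an anterior lobe covariate and leaving out each library. The fit was tested on simulated data. Promoter windows came from RefSeq (GRCr8), a different build from that of the counts. Values per library are given for members past the threshold with or without 35-day replicate 3, at 0 throughout an age, among the 3 highest means or with 1 library far from its group, for receptors, Stat2, Irf9, Isg15 and Mx1, and for up to 10 other pathway genes with the lowest adjusted p. Members, pathway lists and cell type marker lists were chosen with earlier results of these data known. The values of 2 members, included in all counts, are not reported here. Figures were drawn with matplotlib 3.10.9.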

Additional observations from a re-analysis of the deposited data

Results flagged for a closer look

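In 4 of 115 groups of 4 values, 1 library lay far from the other 3 relative to the range; chance flags about 1 in 20 such groups. Ifngr1 at 35 days was 2986 in replicate 4, against 3386 to 3415 in the others. Ifi30 at 35 days was 1435 in replicate 3, against 1029 to 1075 in the others. Oas1b at 125 days was 104.6 in replicate 1, against 145.7 to 151.5 in the others. Gbp2 at 125 days was 805.5 in replicate 4, against 711 to 719 in the others.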

How the results depend on the processing

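The higher members numbered 7 in the fit reported, 4 with no intensity trend and 26 with library weights (which gave 35-day replicate 3 a weight of 0.1). They numbered 11 in DESeq2 and 3 with the anterior lobe covariate. In the same order, the higher genes of the whole table numbered 1585, 1441, 3973, 2001 and 1286. The cause of these differences was not tested. Lower members numbered 6, and 12 with library weights. Library weights also gave 3973 higher and 3919 lower genes in the whole table, and 30 higher and 11 lower pathway genes. Pathway genes that were higher numbered 9 with the covariate, and lower ones 1 at a mean of at least 50, where 1298 of all genes were lower. That filter removed the lower pathway gene Cgas (means of 31.2 at 125 days and 62.1 at 35 days), so its call was not tested there. Leaving out 1 library gave 1 to 16 higher and 4 to 9 lower members, 860 to 2846 higher and 1032 to 2649 lower genes in the whole table, and 5 to 25 higher and 1 to 6 lower pathway genes.

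The calls of Ifngr1, Oas1i and Gbp1 held in all 20 alternatives. Ifit1 was lower in the 19 that kept it (at a mean of at least 50 it was filtered out). It is a member only through its 35-day values, so these 19 results lend no support. Oas2 was called in 4 of the 12 alternatives that kept all libraries and Ifi30 in 7. Mx1, at 0.01, was negative with upper quartile scaling (-0.011), in edgeR (-0.059) and DESeq2 (-0.057), with the covariate (-0.19), and without 35-day replicates 2 (-0.056) and 3 (-0.14) and 125-day replicates 3 (-0.0083) and 4 (-0.047); over single libraries left out it ran from -0.14 to 0.24. No scaling moved the median of all genes by more than 0.03.

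The replicate block left 5 higher and 4 lower members, beside 1290 higher and 1428 lower of all genes, and 1 lower pathway gene. Calls of Ifitm1, Oas2, Ifi30 and Stat2 were lost (adjusted p = 0.0571, 0.0539, 0.0593 and 0.0598). Same-numbered libraries had deviations correlated at 0.0439, 0.167, -0.00019 and -0.116, within the range of differently numbered ones (-0.223 to 0.219). These values gave no ground for pairing by number, but they cannot exclude a shared batch or preparation.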
